A study of Mus musculus with 11 samples.

Results

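The peaks of SMC1 and SMC3, the paired long subunits of the cohesin ring, were compared within wild-type mouse embryonic fibroblasts (MEFs). All intervals of the wild-type SMC1 list (24000) and of the wild-type SMC3 list (15564) were used, 39564 of the 163094 intervals in the 10 deposited lists. The data are from chromatin immunoprecipitation followed by sequencing (ChIP-seq). The cells were primary fibroblasts from embryos at stage E12.5, of the strain C57BL/6 x 129 Sv, and were not treated. Both SMC lists came from 1 library each and were called against the same input, a pool of wild-type and SA1-null DNA. The other lists served as readouts: SA1 and SA2 in wild-type cells, SMC1, SMC3, SA2 and SA1 in SA1-null cells, and both pooled inputs. The labels do not say how many embryos or cultures a library stands for.

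SMC1 and SMC3 are ATPases that join at their hinges, and a kleisin closes the ring at their heads. Each somatic ring also carries SA1 or SA2, which contact the kleisin, and cohesin in mammalian cells gathers largely at sites bound by CTCF and at active promoters and enhancers. Because a ring holds SMC1 together with SMC3, antibodies against either protein read the same complex through different epitopes.

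Nearly every SMC3 peak had an SMC1 peak, whereas many SMC1 peaks had no SMC3 peak. Of the 24000 SMC1 peaks, 14567 overlapped an SMC3 peak by at least 1 bp (60.7%, 95% Wilson interval 60.1 to 61.3%). Of the 15564 SMC3 peaks, 14586 overlapped an SMC1 peak (93.7%, interval 93.3 to 94.1%). The SMC1 list was 1.54 times as long (exact binomial interval 1.51 to 1.57) and covered 14.1 Mb, against 8.79 Mb for SMC3. Laid together, the lists marked 24948 separate positions, of which 9433 (37.8%) had SMC1 alone, 978 (3.92%) had SMC3 alone and 14537 (58.3%) had both. Each list came from 1 library without scores, so these intervals cover the counting of peaks only and no test between the antibodies was possible. Sequencing depth is unknown, and a position without an SMC3 peak cannot be read as one without SMC3. With the SMC1 list reduced to its 15564 widest peaks, 72.1% of SMC1 and 72.3% of SMC3 peaks had a partner. Peaks paired almost only 1 to 1, so lists of equal length must give nearly equal shares, and these values show only how many of the widest SMC1 peaks had SMC3.

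Where both subunits were called, their peaks lay on the same spot. There were 14466 pairs in which 1 SMC1 peak met 1 SMC3 peak, while 49 SMC1 peaks met 2 SMC3 peaks and 30 SMC3 peaks met 2 SMC1 peaks. The centres of a pair were 40.5 bp apart in the median (quartiles 19 and 70.5 bp), and 88.7% of pairs had centres within 100 bp. The signed distance, SMC1 minus SMC3, averaged -0.77 bp (SD 70.4 bp over pairs), so the centres showed no common shift to either side. DNA of 100 to 200 bp had been taken for sequencing, and the typical distance between centres was below that length. The shorter peak of a pair was covered to at least 50% by the longer one in 14452 pairs (99.9%).

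**Figure D1:**
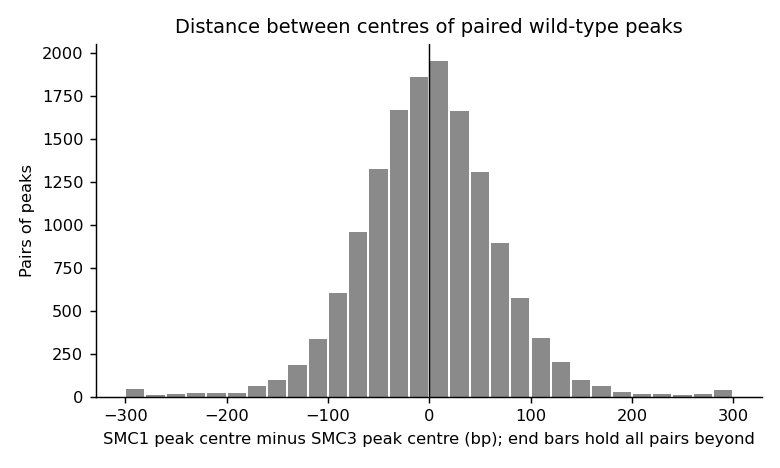
Distance in bp from the SMC3 centre to the SMC1 centre (x axis, bars of 20 bp) against the number of wild-type peak pairs (y axis), with pairs beyond 300 bp gathered in the end bars. The distribution is centred near 0, with 88.7% of the 14466 pairs within 100 bp.

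SMC1 peaks were slightly the wider partner. Widths in pairs were 619 bp for SMC1 and 569 bp for SMC3 in the median, and SMC1 was wider in 9619 pairs (66.5%) and narrower in 4811 (33.3%). The median difference within a pair was 49 bp (quartiles -30 and 133 bp) and was symmetric: SMC1 peaks began 24 bp before and ended 23 bp after the SMC3 peaks in the median. The SMC3 peak lay wholly inside the SMC1 peak in 39.0% of pairs, and the SMC1 peak inside the SMC3 peak in 14.3%. Widths within pairs went together, with a Spearman rho of 0.474 across the 14466 pairs, which share their input and their place in the genome. On all 20 chromosomes the median difference was above 0, from 38 to 62 bp. Taking only the widest SMC1 peaks raises it to 74 bp, by the way those peaks are picked.

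In SA1-null cells the same 2 antibodies gave the opposite order of widths. SA1-null pairs numbered 29980 and had median widths of 577 bp for SMC1 and 665 bp for SMC3, with a median difference, SMC1 minus SMC3, of -81 bp (quartiles -170 and 11 bp), against 49 bp in wild-type pairs. SMC1 was the wider partner in 27.4% of SA1-null pairs and in 66.5% of wild-type pairs. Every chromosome showed these signs, with medians from -93 to -68 bp in SA1-null cells and from 38 to 62 bp in wild-type cells. At positions paired in both genotypes the medians were -91 bp in SA1-null cells and 49 bp in wild-type cells. The centres of SA1-null pairs were 46 bp apart in the median, against 40.5 bp for wild-type pairs. In SA1-null cells 66.6% of SMC1 peaks had SMC3 and 88.8% of SMC3 peaks had SMC1, against 60.7% and 93.7% in wild-type cells. The list for SMC1 in SA1-null cells joins 2 replicates and depth is unknown for all 4 lists, so genotype and library cannot be told apart here.

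Peaks that lacked the other subunit were narrower than those that had it. SMC1 peaks without SMC3 had a median width of 512 bp (quartiles 430 and 602 bp), against 619 bp (534 and 701 bp) for those with SMC3. SMC3 peaks without SMC1 had a median of 446 bp (387 and 527 bp), against 569 bp (487 and 646 bp) for those with SMC1. In the narrowest 10% of SMC1 peaks, 26.8% had SMC3, and the share was higher in each further class up to 86.6% in the ninth of 10 classes, from 694 to 757 bp. For SMC3 the corresponding shares were 79.8% in the narrowest class and 98.8% in the ninth.

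The widest SMC1 peaks broke this trend. In the tenth class, from 757 to 3079 bp, 76.0% (interval 74.3 to 77.7%) had SMC3, below the 86.6% (85.2 to 87.9%) of the ninth. The step lay near 800 bp: 85.7% of the 2960 SMC1 peaks from 700 to under 800 bp had SMC3, and 72.3% of the 726 peaks from 800 to under 900 bp. From 800 bp upward the share stayed between 72.3 and 73.3% in each of 4 width steps. SA1 followed the same course, with a peak at 85.7% of SMC1 peaks in the step below 800 bp and at 71.8% in the step above. SMC3 peaks of 800 bp or wider, 467 in number, had SMC1 in 96.8% of cases. They had SA1 in 80.9% (interval 77.1 to 84.2%), against 92.8% (91.3 to 94.1%) of SMC3 peaks from 700 to under 800 bp. The lower SA1 share above 800 bp was thus not particular to SMC1 peaks. The widths of 700, 800 and 900 bp were chosen as round steps with the values in view.

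**Figure D2:**
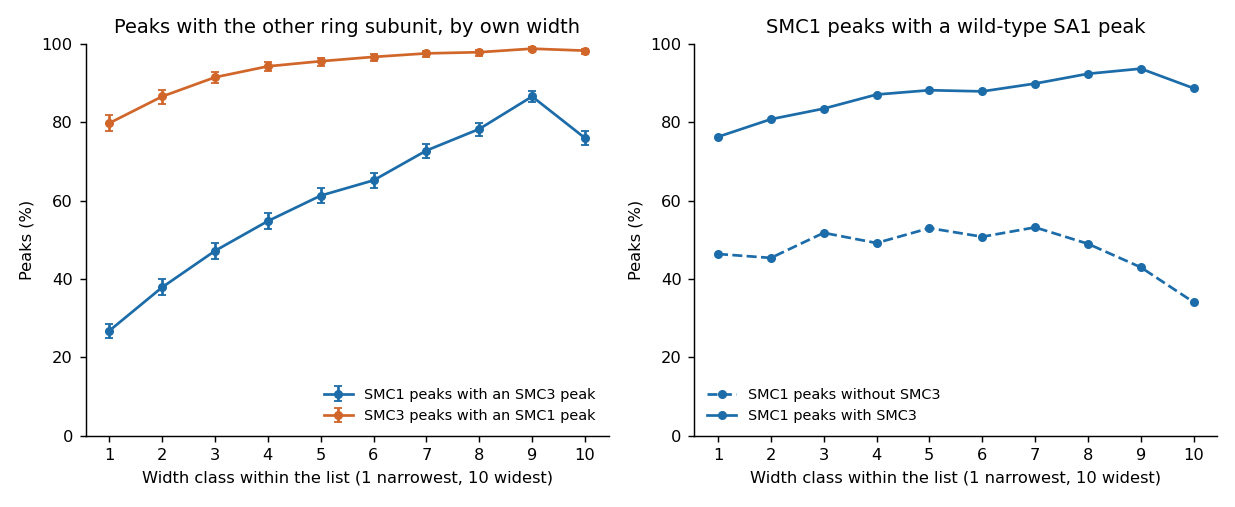
Left, percent of SMC1 peaks with SMC3 and of SMC3 peaks with SMC1 (y axis) in 10 equal classes of own width (x axis, narrowest to widest; bars are 95% Wilson intervals). Right, percent of SMC1 peaks with a wild-type SA1 peak, without SMC3 (dashed) and with SMC3 (solid). SMC1 peaks with SMC3 run from 26.8% to 86.6% and then 76.0%, and the dashed line ends at 34.1%.

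SA1, mapped with its own antibody and against the other input, was found much less often at peaks of a single ring subunit. An SA1 peak lay at 4536 of the 9433 SMC1 peaks without SMC3 (48.1%, interval 47.1 to 49.1%), against 12863 of the 14567 with SMC3 (88.3%, 87.8 to 88.8%). Over all SMC1 peaks the share was 72.5%. The difference, without minus with SMC3, was -40.2 percentage points (Newcombe interval -41.3 to -39.1), and -36.5 points within classes of width. SMC3 peaks without SMC1 had SA1 at 422 of 978 (43.1%, 40.1 to 46.3%), against 12872 of 14586 (88.2%) for those with SMC1 and 85.4% for all SMC3 peaks. The SMC3 difference was -45.1 points (interval -48.2 to -41.9), but -16.6 points when the SMC1 list was reduced to the length of the SMC3 list, which leaves more SMC3 peaks without a partner.

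SA2 divided the classes in the same direction. Wild-type SA2 peaks were present at 7.65% of SMC1 peaks without SMC3 and at 28.4% of those with SMC3, with 20.2% over all SMC1 peaks. For SMC3 the shares were 6.24% without SMC1, 28.3% with SMC1 and 26.9% over all. SA2 peaks of SA1-null cells gave 6.78% without SMC3 and 32.4% with it for SMC1 peaks (22.3% over all), and 4.91% without SMC1 and 32.4% with it for SMC3 peaks (30.6% over all).

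Most SMC1 peaks without a wild-type SMC3 peak did have an SMC3 peak in SA1-null cells. The SA1-null SMC3 list was a further library made with the same antibody and called against the same input. It had a peak at 7263 of these 9433 positions (77.0%, interval 76.1 to 77.8%), against 98.8% of SMC1 peaks with wild-type SMC3 and 90.2% of all SMC1 peaks. In the mirror case, the SA1-null SMC1 list had a peak at 712 of the 978 SMC3 peaks without wild-type SMC1 (72.8%, 69.9 to 75.5%), against 99.3% of those with SMC1 and 97.6% of all SMC3 peaks. The SA1-null lists are longer. Reduced by width to the wild-type lengths, they covered 29.9% of the SMC1 peaks without SMC3, against 62.1% of those with it, and 32.5% of the SMC3 peaks without SMC1, against 72.3% of those with it. The cut drops narrow peaks. SA1-null SMC3 peaks had a median of 631 bp at SMC1 alone and 713 bp at both. SA1-null SMC1 peaks had 500 bp at SMC3 alone and 614 bp at both. Part of these gaps thus follows from the cut itself.

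The same antibody in SA1-null cells also found most single-subunit peaks again. SA1-null SMC1 peaks lay at 84.2% of SMC1 peaks without SMC3 and 99.3% of those with it (93.4% of all), and SA1-null SMC3 peaks lay at 65.8% of SMC3 peaks without SMC1 and 98.8% of those with it (96.7% of all). SMC3 peaks without SMC1 thus had an SMC1 peak in SA1-null cells (72.8%) at least as often as an SMC3 peak (65.8%). The SA1-null SMC1 list is the longer of these, with 47003 peaks, against 34802 for SMC3.

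**Figure D3:**
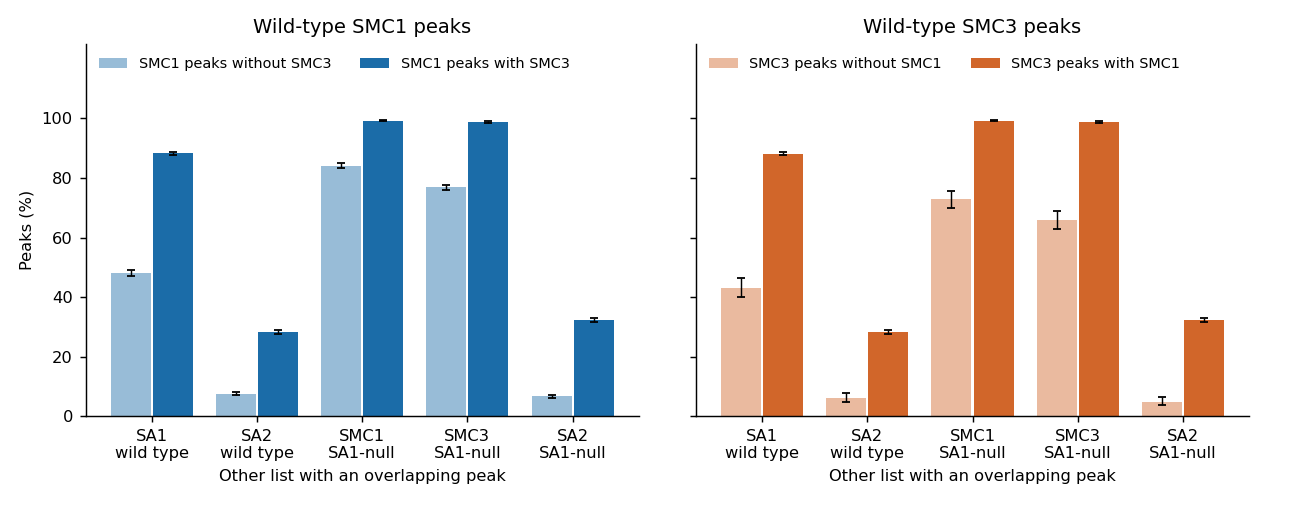
Percent of wild-type SMC1 peaks (left) and SMC3 peaks (right) that overlapped a peak of 5 other lists (x axis), with bars for peaks without (pale) and with (dark) the other ring subunit and 95% Wilson intervals. Each pale bar is below its dark neighbour. The gap is smallest at 84.2 against 99.3% (SA1-null SMC1 at SMC1 peaks) and largest at 43.1 against 88.2% (wild-type SA1 at SMC3 peaks).

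Taken over the readouts jointly, SMC1 peaks without SMC3 were mostly of 3 kinds. In 3893 (41.3%) SA1 and both SA1-null SMC lists had a peak, in 2972 (31.5%) both SA1-null SMC lists but not SA1 did, and in 906 (9.60%) none of the 5 other cohesin lists did. SMC1 peaks with SMC3 gave 12761 (87.6%), 1581 (10.9%) and 29 (0.199%), and all SMC1 peaks 69.4%, 19% and 3.9%. SMC3 peaks without SMC1 gave 340 (34.8%), 260 (26.6%) and 195 (19.9%). SMC3 peaks with SMC1 gave 12768 (87.5%), 1591 (10.9%) and 27 (0.185%), and all SMC3 peaks 84.2%, 11.9% and 1.43%. Peaks found in no other cohesin list made up 3.77% of the whole SMC1 list and 1.25% of the whole SMC3 list. These shares do not measure false calls and cannot be set against the false discovery rate of 10 (read as percent) in the list names. Intervals of the inputs or of the SA1-null SA1 list, which mark background, overlapped 15 SMC1 peaks without SMC3 (0.159%) and 12 SMC3 peaks without SMC1 (1.23%, interval 0.703 to 2.13%), against 10 peaks (0.0686%) of each list with both subunits.

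Most peaks of a single subunit had no peak of the other subunit within 1000 bp. The nearest SMC3 peak was 29.9 kb from an SMC1 peak without SMC3 in the median (quartiles 9.95 and 72.0 kb), and 445 of the 9433 (4.72%) had one within 1000 bp. The nearest SMC1 peak was 20.8 kb from an SMC3 peak without SMC1 (quartiles 5.91 and 54.5 kb), and 70 of 978 (7.16%) had one within 1000 bp. These distances were near the spacing of the lists themselves. The median gap to the next peak of the same list was 28.2 kb for all SMC3 peaks and 17.5 kb for all SMC1 peaks. Spacing within a list was alike for both kinds of SMC1 peak, with a median gap to the next SMC1 peak of 18.1 kb without SMC3 and 17.2 kb with it. For SMC3 peaks the median gap to the next SMC3 peak was 33.4 kb without SMC1 and 27.8 kb with it. SMC1 peaks under 1 kb from the next had SMC3 in 56.4% of cases (interval 54.2 to 58.7%), and those 1 to 5 kb away in 63.0% (61.4 to 64.5%). From 5 to 100 kb the share was 60.8 to 62%, and at 100 kb or more it was again low, at 56.6% (54.3 to 58.8%).

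Among SMC1 peaks without SMC3, the share with SA1 was lowest from 700 to under 1000 bp. It was 46.9 to 48% in the steps under 500 bp, 51.5% of the 2644 peaks from 500 to under 600 bp and 50.8% of the 1552 from 600 to under 700 bp. It was 37.7% of the 424 from 700 to under 800 bp, 30.3% of the 201 from 800 to under 900 bp and 28.3% of the 99 from 900 to under 1000 bp. The 88 peaks from 1000 to under 1200 bp gave 44.3% and the 50 wider ones 52%. Over all 438 peaks of 800 bp or wider the share was 35.2% (interval 30.8 to 39.7%), against 48.7% (47.7 to 49.7%) of the 8995 narrower ones. An SA1-null SMC3 peak was present at 63.6 to 73.2% in the steps under 500 bp, 80.4% from 500 to under 600 bp and 86% from 600 to under 700 bp. It was present at 83.3% of the peaks from 700 to under 800 bp and at 84.8 to 96% in the wider steps. Over all 438 peaks of 800 bp or wider the share was 89.3% (interval 86 to 91.8%), against 76.4% (75.5 to 77.3%) of the narrower ones. A wild-type SA2 peak lay at 5.02% of those 438, against 7.78% of the narrower ones, and an SA1-null SA2 peak at 2.97%, against 6.97%. SMC1 peaks of 800 bp or wider with SMC3, 1158 in number, had SA1 in 85.5% of cases, wild-type SA2 in 35.4% and SA1-null SA2 in 44.3%. The 13409 narrower SMC1 peaks with SMC3 gave 88.5%, 27.8% and 31.4%. Among SMC1 peaks with SMC3, both SA2 shares were thus higher at the wider peaks.

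At positions chosen with neither SMC antibody, SMC1 peaks were also the more frequent with the lists as deposited. Of 26602 wild-type SA1 peaks, SMC1 had a peak at 65.6% and SMC3 at 50.1%, with both at 48.5%, SMC1 alone at 17.1%, SMC3 alone at 1.60% and neither at 32.8%. Of the SA1 peaks with SMC3, 96.8% (interval 96.5 to 97.1%) also had SMC1, and of those with SMC1, 73.9% (73.2 to 74.5%) had SMC3. SMC1 led by 15.5 percentage points with the lists as deposited. With the widest 15564 SMC1 peaks, a setting that changes length and widths together (narrowest peak 525 bp, against 211 bp for SMC3), the difference became -3.93 points, and 78.4% (77.7 to 79.0%) of those SMC1 peaks had SA1, against 85.4% (84.9 to 86.0%) of the equally many SMC3 peaks. At SA1 peaks with SA2, SMC1 was present at 89.1% and SMC3 at 77.5%. At SA1 peaks without SA2 the shares were 59.7% for SMC1 and 43.2% for SMC3.

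Peak width in the lists not used to define the classes followed the number of ring subunits called. SA1 peaks had a median width of 527 bp at SMC1 alone, 518 bp at SMC3 alone, 586 bp where both were called and 461 bp where neither was. The same 4 classes gave 464, 462, 500 and 433 bp for wild-type SA2 peaks, and 631, 602, 713 and 585 bp for SA1-null SMC3 peaks. SA1-null SMC1 peaks gave 538, 500, 614 and 479 bp, and SA1-null SA2 peaks gave 506, 534, 542 and 462 bp. In the narrowest 10% of SA1 peaks SMC1 was called at 39.3% and SMC3 at 24.7%, and in the widest 10% SMC1 at 85.9% and SMC3 at 74.6%. Single-subunit positions thus lay between shared and uncalled positions in median width in each of these 5 lists. Medians at SMC1 alone and SMC3 alone were closest for wild-type SA2 (464 and 462 bp) and furthest apart for SA1-null SMC1 (538 and 500 bp). Their quartiles overlapped (439 to 622 bp and 428 to 626 bp for SA1). The 534 bp for SA1-null SA2 peaks at SMC3 alone rests on 47 peaks and lay near the 542 bp at both.

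Along the chromosomes the subunits kept the same landscape. In 2509 windows of 1 Mb with any cohesin peak, the numbers of SMC1 and SMC3 peaks had a Spearman rho of 0.957, and those of SMC1 and SA1 0.918, as a description across windows of the same genome, with an input shared by both SMC lists. The median window held 8 SMC1 and 5 SMC3 peaks. On the 19 autosomes, 58.7 to 62.3% of SMC1 peaks had SMC3 and 92.6 to 95% of SMC3 peaks had SMC1. In windows with 1 or 2 SMC1 peaks, 50.6% (interval 45.8 to 55.3%) of these had SMC3, and from 6 peaks upward between 60 and 61.8%.

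SMC1 peaks without SMC3 had SA1 less often where SMC1 peaks were denser. Their share with SA1 was 71.6% in windows with 1 or 2 SMC1 peaks, 68.5% with 3 to 5, 54.6% with 6 to 10, 48.4% with 11 to 15, 42.8% with 16 to 20, 42.4% with 21 to 30 and 37.9% with 31 or more. Among SMC1 peaks with SMC3 the share with SA1 varied less, from 91.5% in the sparsest to 83.8% in the densest windows. Over all SMC1 peaks it also fell, from 81.7% in the sparsest to 65.8% in the densest windows. For SMC1 peaks without SMC3, leaving out chromosome X, the lowest and highest classes gave 71.0% (interval 64.1 to 77.1%) and 37.9% (34.1 to 42.0%). Median SMC1 widths were 526 bp in the sparsest and 586 bp in the densest windows, and the part of width in this pattern was not tested.

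**Figure D4:**
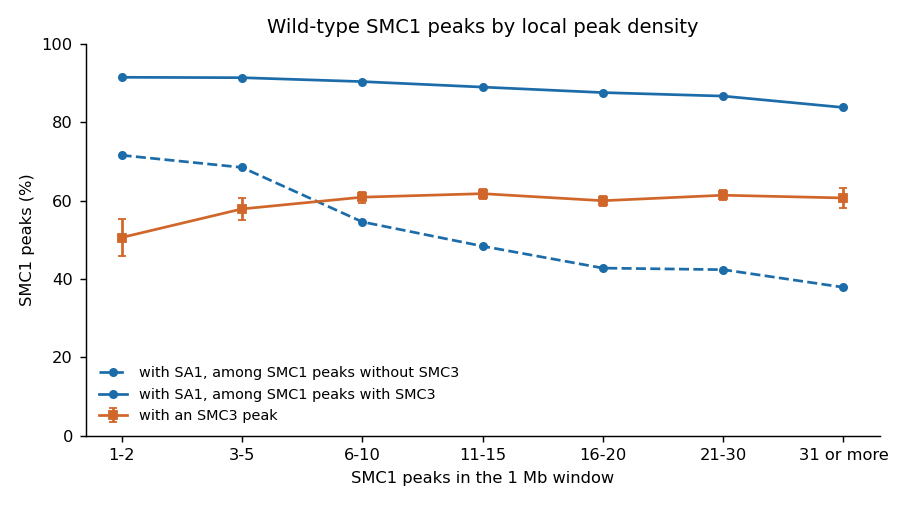
Percent of wild-type SMC1 peaks (y axis) by the number of SMC1 peaks in their 1 Mb window (x axis), showing the share with SMC3 (orange, 95% Wilson intervals) and the share with SA1 among peaks without SMC3 (dashed) and with SMC3 (solid blue). The dashed line runs from 71.6% to 37.9% while the solid one runs from 91.5% to 83.8%.

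Chromosome X stood apart from the autosomes. It held 485 SMC1 and 277 SMC3 peaks, a ratio of 1.75, against 1.50 to 1.59 on autosomes. Of its SMC1 peaks 50.3% (interval 45.9 to 54.7%) had SMC3, against 60.9% ± 0.956 on autosomes (SD over 19), and 88.4% (84.1 to 91.7%) of its SMC3 peaks had SMC1, against 93.9% ± 0.632. Peaks on X were narrower, with medians of 510 bp for SMC1 and 511 bp for SMC3, against autosomal ranges of 567 to 598 bp and 546 to 578 bp. Over all chromosomes, SMC1 peaks of 461 to 505 bp had SMC3 in 47.2% of cases and those of 505 to 544 bp in 54.8%. By density the shares were 50.6% with 1 or 2 SMC1 peaks per window, 57.9% with 3 to 5 and 60.9% with 6 to 10. The part of width and density in the SMC3 share on X was not tested. The 241 SMC1 peaks without SMC3 on X had SA1 in 74.7% of cases (68.8 to 79.8%), against 43.1 to 53.1% on single autosomes, while those with SMC3 had SA1 at 90.2%, within the autosomal range of 86.0 to 91.4%. An SA1-null SMC3 peak lay at 76.3% of the 241, also within the autosomal range of 70.9 to 81.1%. Over all SMC1 peaks the SA1 share was 82.5% on X and 72.3% on autosomes. SMC1 peaks with SMC3 on X did differ in SA1-null SA2, present at 13.5% (9.79 to 18.4%), against 32.7% (31.9 to 33.5%) on autosomes. Windows on X were sparse, with a median of 2 SMC1 peaks, against 9 on autosomes. In windows with at most 5 SMC1 peaks, SA1 lay at 63 of 80 SMC1 peaks without SMC3 on X (78.8%, 68.6 to 86.3%) and at 462 of 677 on autosomes (68.2%, 64.6 to 71.6%), and these intervals overlapped. In windows with 6 to 10 SMC1 peaks the shares were 82 of 107 on X (76.6%, 67.8 to 83.6%) and 53.3% (50.9 to 55.6%) on autosomes, and in windows with 11 to 15 they were 35 of 54 on X (64.8%, 51.5 to 76.2%) and 48% (45.8 to 50.1%) on autosomes. X was thus above the autosomes in each of these 3 density classes, with separate intervals in the classes of 6 to 10 and 11 to 15. The sex of the embryos is not in the labels.

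**Figure D5:**
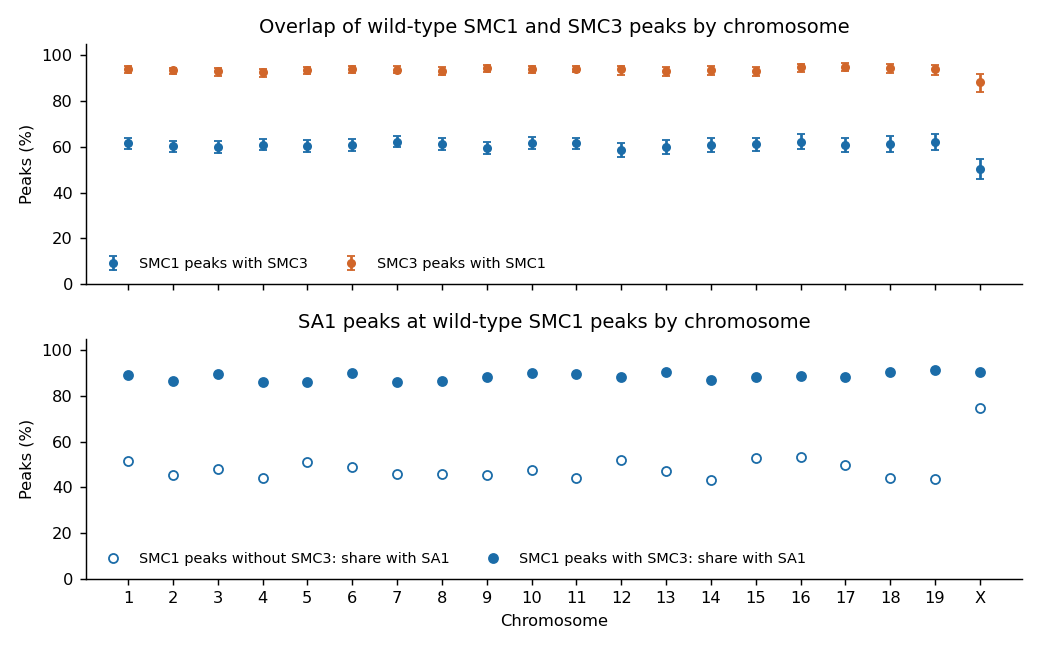
Top, percent of SMC1 peaks with SMC3 (blue) and of SMC3 peaks with SMC1 (orange) on each chromosome, with 95% Wilson intervals. Bottom, percent of SMC1 peaks with a wild-type SA1 peak, for peaks without SMC3 (open) and with SMC3 (filled). Chromosome X is low in both upper series (50.3% and 88.4%) and high in the open circles (74.7%).

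The 5 widest positions of each kind, outside background intervals and chromosome 18, are given by mm9 coordinates, starts counted from 1. The widest with SMC1 alone were on chromosome 10 from 12587541 to 12589620, chromosome 1 from 171461498 to 171463319, chromosome 4 from 6917027 to 6918700, chromosome 14 from 46791412 to 46793031 and chromosome 13 from 5861712 to 5863323. The first of these measured 2080 bp, had an SA1 peak, and in SA1-null cells carried an SMC1 peak of 2761 bp and an SMC3 peak of 2759 bp. The nearest wild-type SMC3 peaks were between 51532 and 603347 bp away. All 5 were called with both antibodies in SA1-null cells, and those on chromosomes 10, 1 and 13 had SA1.

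The widest positions with SMC3 alone were on chromosome 11 from 86397817 to 86399013, chromosome 19 from 5840925 to 5841938, chromosome 3 from 142056855 to 142057842, chromosome 12 from 81361598 to 81362530 and chromosome 3 from 38153320 to 38154223. None of these 5 had SA1 or SA2, and each was called with both antibodies in SA1-null cells. The SA1-null SMC3 peak was 5874 bp wide at the first and 7632 bp at the second, against wild-type SMC3 peaks of 1197 and 1014 bp. Wild-type SMC1 peaks lay 642, 482 and 645 bp from the positions starting at 86397817, 142056855 and 81361598, so these 3 bordered on an SMC1 peak, unlike most SMC3 peaks without SMC1.

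The widest positions with both subunits were on chromosome 3 from 145310263 to 145313653, chromosome 10 from 17441372 to 17443512, chromosome 1 from 164153696 to 164156541, chromosome 1 from 90183263 to 90185163 and chromosome 16 from 15294198 to 15295874. At the first, the SMC1 peak measured 3079 bp and the SMC3 peak 2853 bp, and neither SA1 nor SA2 had a peak there. The other 4 had SA1. All 5 were called with both antibodies in SA1-null cells. Genes and sequences at these positions were not analysed here.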

How the data were processed

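ChIP-seq interval lists were used as the authors deposited them. Each holds a chromosome, a start and an end, with no score, height or p-value. Per the submitters' processing notes, coordinates are in mm9 and CASAVA 1.7 was run. Aligner and peak caller: not given in the sources used here. Per the names of the deposited lists, both wild-type SMC lists were called against the same input at a false discovery rate of 10 with no minimum fold change, and the SA1-null SMC1 list joins 2 replicates. Depth is unknown.

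Starts were read as 0-based and printed as 1-based. Peaks overlapping by at least 1 bp were counted as shared. Shares carry 95% Wilson intervals, differences of shares Newcombe intervals, and the ratio of list lengths an exact binomial interval, all for counting error only. Width classes are 10 equal groups of peaks per list. Windows were 1 Mb, with a peak placed by its centre. The named positions are the 5 widest of each kind (for shared positions by mean width percentile), leaving out chromosome 18 and any position that overlaps an interval of an input or of the SA1-null SA1 list.

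Python 3.11.15, numpy 2.4.6, pandas 2.3.3, scipy 1.17.1 and statsmodels 0.14.6 were used. Overlap counting was tested on simulated data, and bedtools 2.31.1 gave the same number in each of 100 ordered comparisons of lists. Alternatives were a 50% overlap, a 500 bp gap, merging below 1000 bp, removal of background intervals, an SMC1 list reduced by width, and removal of chromosome X. The comparisons and lists were chosen with earlier results of these data known.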

Additional observations from a re-analysis of the deposited data

Results flagged for a closer look

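The width difference within pairs, SMC1 minus SMC3, had opposite signs in the genotypes, at -81 bp in SA1-null cells and 49 bp in wild-type cells. With 1 list per antibody and genotype the difference between genotypes was not tested.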

How the results depend on the processing

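Of 63 recomputed values, 45 stayed within the counting interval of the reported value, 17 lay outside it in the same direction and 1 reversed. Some of the 45 could hardly move or not at all. The ratio of list lengths does not use overlap, so the 50% overlap and the 500 bp gap left it as it was. Background intervals met only 25 SMC1 and 22 SMC3 peaks, and 99.9% of pairs already had a 50% overlap. The tally is therefore no measure of robustness. With the SMC1 list reduced to its widest peaks, the SMC1 lead at SA1 positions reversed to -3.93 points. The same setting gave 72.1% of SMC1 peaks with SMC3, 72.3% of SMC3 peaks with SMC1, a width difference of 74 bp, a centre distance of 39 bp, SA1 differences of -42 points (SMC1) and -16.6 points (SMC3), 83.9% of SMC1 peaks without SMC3 in the SA1-null SMC3 list and 92.5% of SMC3 peaks without SMC1 in the SA1-null SMC1 list. This setting changes length and widths together, and the part of each was not tested. Counting peaks up to 500 bp apart as shared gave 61.7% of SMC1 peaks with SMC3 and 77.9% of those without it in the SA1-null SMC3 list. Merging peaks closer than 1000 bp gave 61.8% of SMC1 peaks with SMC3, a width difference of 53 bp and a centre distance of 42 bp. A 50% overlap, removal of background intervals and removal of chromosome X moved none of the 10 results out of its interval. Settings added after the data were seen gave SA1 differences of -36.5 (SMC1) and -40.7 points (SMC3) within width classes, and 29.9% and 32.5% for the SA1-null shares with those lists reduced by width. Reducing the SA1-null lists also changes length and widths together. A stricter threshold could not be set, since no list holds a score. No paired analysis was possible because the result comes from no test and the wild-type lists carry no replicate number. Depth and replicate spread, which the lists do not hold, limit every share above.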
